A study of Mus musculus with 6 samples.

Results

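The 49 genes described here are the rows of the count table whose symbol starts with Nduf, out of 23505 gene rows, without symbols that carry a numbered suffix or end in -ps. That rule left aside 4 rows with a numbered suffix and 0 rows ending in -ps. The symbol covers the nuclear-encoded subunits of respiratory complex I and the assembly factors of the Ndufaf series. The members were chosen by their symbol, with earlier results of these data known. A pair of them, Ndufa4 and Ndufa4l2, carry the name although Ndufa4 is known today as a subunit of complex IV, so that pair is described apart.

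Complex I is the NADH:ubiquinone oxidoreductase of the inner mitochondrial membrane. It takes electrons from NADH, passes them along a chain of iron-sulfur clusters in a peripheral arm to ubiquinone, and pumps protons through a membrane arm. A small set of core subunits does the chemistry, the many accessory subunits build and stabilise the arms, and assembly factors help to put the modules together without staying in the finished enzyme. T cells rely on complex I for ATP, for NAD+ regeneration and for the reactive oxygen signals that follow receptor engagement. The proton-pumping core subunits are encoded in mitochondrial DNA, and these 7 mt-Nd genes were not analysed here.

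RNA was sequenced from CD4+ T cells of wild-type mouse liver, sorted as CD3-positive and CD4-positive cells without CD8 and NK1.1, after mice received ConA (concanavalin A), a lectin from jack beans whose injection sets off a T cell-driven liver inflammation. The ConA group (3 libraries) had been gavaged with phosphate-buffered saline, and the ConA+SIM group (3 libraries) with the statin simvastatin at 30 mg/kg. Both groups were gavaged on each of the 5 days ahead of ConA, again 1 h ahead of it, and a last time when 24 h had passed since ConA. Both groups received ConA, so no group without hepatitis is part of the comparison. The labels give neither strain nor age, nor whether a library came from 1 mouse or a pool, and p-values here reflect library-to-library spread only, which may be technical. The question is which transcripts of these sorted cells differ with simvastatin when ConA is present in both arms.

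Total counts per library ran from 17549429 to 25031862. ConA+SIM replicate 2 stood apart: 18.4% of the tested genes had no count there, while the share elsewhere was 2.76% to 9.98%. The libraries also differed in how strongly levels depended on transcript length. CPM are counts per 1e6 of the library total multiplied by its TMM scaling factor. The slope of log2 CPM per doubling of length was taken relative to the mean of the 6 libraries. It was 0.11, 0.30 and 0.080 for the ConA libraries and -0.27, -0.084 and -0.14 for the ConA+SIM libraries (each in replicate order). Short transcripts were thus relatively more abundant in every ConA+SIM library. The tested Nduf transcripts were short, with a median of 971 nt against 2990 nt over all tested genes (longest principal transcript of each gene). The T cell genes Cd3d, Cd3e, Cd3g, Cd4, Cd5 and Cd28 had counts in all 6 libraries, and their summed level was 1805 to 2773 CPM in ConA and 2562 to 2623 CPM in ConA+SIM.

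Promoter sequence is available in RefSeq (GRCm38.p6) for 42 of the 49 genes, with 44 promoters of 300 bases, since 2 genes have 2 each. Transcription factors known to act on respiratory chain genes were looked for on both strands: NRF1, the ETS family to which GABP belongs, and YY1. The NRF1 core (GCGCA and GCGC with any 1 base between them) was found in 10 of 44 Nduf promoters (22.7%) and in 4.6% of all 32851 promoters of the same length. The YY1 core AAGATGGC was found in 8 (18.2%) against 2.75%, and the ETS core CCGGAAG in 6 (13.6%) against 8.86%. The 3 other spellings tried, the NRF1 core with T as its free base, GCATGCG for NRF1 and GATGGCGG for YY1, overlap these and were found in 3, 5 and 7 of 44 promoters, against 0.971%, 3.58% and 1.7% of all promoters. A match is a description of letters and not a binding site. The promoters of 4 genes are shown from 150 bases before to 30 bases after the start, with matches to the first 3 motifs in capitals. Ndufs8 and Ndufv1 are the core subunits whose groups did not overlap, Ndufs8 with higher and Ndufv1 with lower values in ConA+SIM. Ndufb4 had the highest fold change of the tested members and 2 NRF1 matches, and Ndufa3 has a YY1 match beside its start. Of the genes with the NRF1 core, Ndufa5, Ndufa6, Ndufaf4, Ndufb4 and Ndufs6 had higher fitted values in ConA+SIM. Ndufa8, Ndufa11, Ndufaf5 and Ndufs5 had lower ones. A relation between matches and fold changes was not tested.

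Ndufs8, chr19:3912745-3912924, strand -: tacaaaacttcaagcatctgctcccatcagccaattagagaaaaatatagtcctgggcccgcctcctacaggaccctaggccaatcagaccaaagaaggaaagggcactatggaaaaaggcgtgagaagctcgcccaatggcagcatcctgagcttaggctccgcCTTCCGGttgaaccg
Ndufv1, chr19:4012726-4012905, strand -: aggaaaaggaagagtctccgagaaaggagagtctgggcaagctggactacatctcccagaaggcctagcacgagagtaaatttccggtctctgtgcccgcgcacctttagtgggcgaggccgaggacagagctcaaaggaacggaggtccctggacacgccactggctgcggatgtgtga
Ndufb4, chr16:37654339-37654518, strand -: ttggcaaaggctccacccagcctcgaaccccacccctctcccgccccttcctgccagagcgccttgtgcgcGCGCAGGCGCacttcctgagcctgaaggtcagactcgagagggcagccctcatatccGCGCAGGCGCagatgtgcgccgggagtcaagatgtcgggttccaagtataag
Ndufa3, chr7:3617223-3617402, strand +: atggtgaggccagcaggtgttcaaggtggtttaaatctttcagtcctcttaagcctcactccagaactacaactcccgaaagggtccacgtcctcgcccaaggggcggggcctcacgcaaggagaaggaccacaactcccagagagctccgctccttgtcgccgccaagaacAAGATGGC

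The capitals mark an ETS match in Ndufs8, a pair of NRF1 matches in Ndufb4 and a YY1 match in Ndufa3, and the Ndufv1 window holds none of the 3.

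Of the 49 genes, 46 had enough counts to be tested. Ndufa7 and Ndufa4l2 had 0 counts in all 6 libraries, and Ndufs3 had a single count in each of ConA replicate 2 and ConA+SIM replicate 1. A count of 0 allows up to 3 counts, 0.118 to 0.175 CPM depending on the library, which covers counting error only. Ndufs3 and Ndufa7 have a counted partner under a numbered symbol. Ndufs3_1 held 718, 207 and 521 counts in ConA and 269, 64 and 195 in ConA+SIM, and Ndufa7_1 held 254, 16 and 43 against 56, 19 and 26. With the rows of a symbol summed, Ndufs3, a core subunit of the ubiquinone-binding part, had a mean of 20.7 ± 10.2 CPM (ConA) and 9.52 ± 5.39 CPM (ConA+SIM). Here and for every ± beside a CPM value, the spread is the SD with n = 3 libraries per group. The log2 fold change of the summed Ndufs3 rows was -1.12 ± 1.49 (SE, edgeR quasi-likelihood test, adjusted p = 0.999), and the groups overlapped.

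The Nduf genes had mostly higher values in ConA+SIM, but 0 of the 46 passed the test over all genes (edgeR quasi-likelihood test, adjusted p under 0.05), where 0.542% of all 10509 tested genes passed, all of them higher in ConA+SIM. The common coefficient of variation between libraries of a group, beyond counting error, was 1.118 in that fit. With so wide a spread, a count of 0 does not show that levels were equal. At an unadjusted p under 0.05, 5 of 46 were higher (10.9%) and 1 was lower (2.17%), against 5.31% and 3.54% of all tested genes (8.85% in either direction). DESeq2 called 4 of them higher, Ndufa4, Ndufb11, Ndufa6 and Ndufc2, with 3.31% of its tested genes called higher and 1.84% lower. Limma-voom called 0 Nduf genes, with 1.14% of all tested genes called higher and 0.0761% lower, and limma-voom with quality weights called 0, with 1.21% higher and 0.0952% lower. The fitted log2 fold change was above 0 in 34 of 46 Nduf genes (73.9%), against 48% of all tested genes. Their median was 0.43, against -0.041 over all tested genes.

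Summed over all 49 genes, the level was 2385, 2273 and 2434 CPM (ConA, in replicate order) and 3853, 3117 and 3211 CPM (ConA+SIM). The ConA libraries lay close together, all below the ConA+SIM libraries, and the ratio of the means was 1.44. The sum over all tested genes had a ratio of 1.12 on the same scale, and its groups did not overlap either. That sum is set by the TMM scaling factors alone and is not a measured rise. The factors were 1.07, 1.09 and 1.02 in ConA and 0.919, 0.980 and 0.939 in ConA+SIM, in replicate order. The same factors enter the Nduf sums. The sums over listed genes of respiratory complexes III, IV and V were separated in the same direction, and that of complex II overlapped. By library, 38 of the 46 tested genes lay above their own 6-library mean in ConA+SIM replicate 1, 23 in replicate 2 and 34 in replicate 3, against 21, 17 and 23 in the ConA libraries in the same order (log2 of CPM + 1). ConA+SIM replicate 1, with the most negative length slope, held the highest value of 19 of the 46 genes, and ConA replicate 2, with the most positive one, held the lowest value of 13.

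When each library's trend with transcript length was removed, the excess of higher values was no longer there. With that correction 23 of 46 genes were higher and 23 lower, the median was -0.012, and 0 Nduf genes and 0 of all genes passed. With length and GC content removed together, 23 were higher and the median was -0.016. With the median length of a gene's coding transcripts in place of the longest principal one, an alternative chosen after seeing the data, 24 were higher and the median was 0.055. The slope with length was positive in every ConA library and negative in every ConA+SIM library. Removing the trend therefore also removes any treatment difference shared by short transcripts. A length trend between libraries and such a treatment difference cannot be told apart here. Higher values of short transcripts in ConA+SIM are also seen in the uncorrected values of all genes. Among all tested genes with a median transcript length under 1000 nt, 71% of 853 had higher values in ConA+SIM, with a median log2 fold change of 0.52. The 28 Nduf genes of that length had 22 higher values (78.6%) and a median of 0.68. Among genes of 1000 nt or more, the median was -0.081 over 9605 genes and 0.30 over 17 Nduf genes. Of these 17, 11 (64.7%) were higher, against 45.9% of all. Within either range of lengths the Nduf genes were not matched in length to the other genes, so a difference beyond length was not tested.

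**Figure D1:**
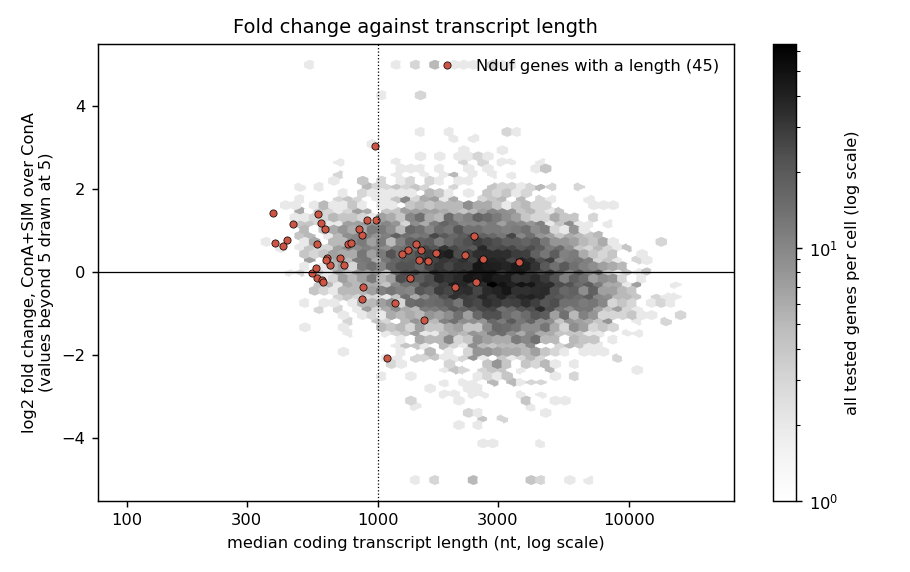
Log2 fold change of ConA+SIM over ConA (vertical axis) against the median coding transcript length of each gene in nt (horizontal log axis). Grey cells count all tested genes and red points are the 45 tested Nduf genes with a length; the dotted line marks 1000 nt, and 28 Nduf genes lie to its left, where most genes of any kind lie above 0.

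In 10 of the 46 genes the 3 ConA+SIM values all lay above the 3 ConA values (21.7%, against 9.18% of all tested genes), and in 1 they all lay below (2.17%, against 8.57%). Of genes under 1000 nt, 9 of the 28 Nduf genes (32.1%) and 25.4% of all tested genes had all ConA+SIM values above. In the remaining 35 genes the groups overlapped. The 11 separated genes are given below by role, with their values in every library.

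**Figure D2:**
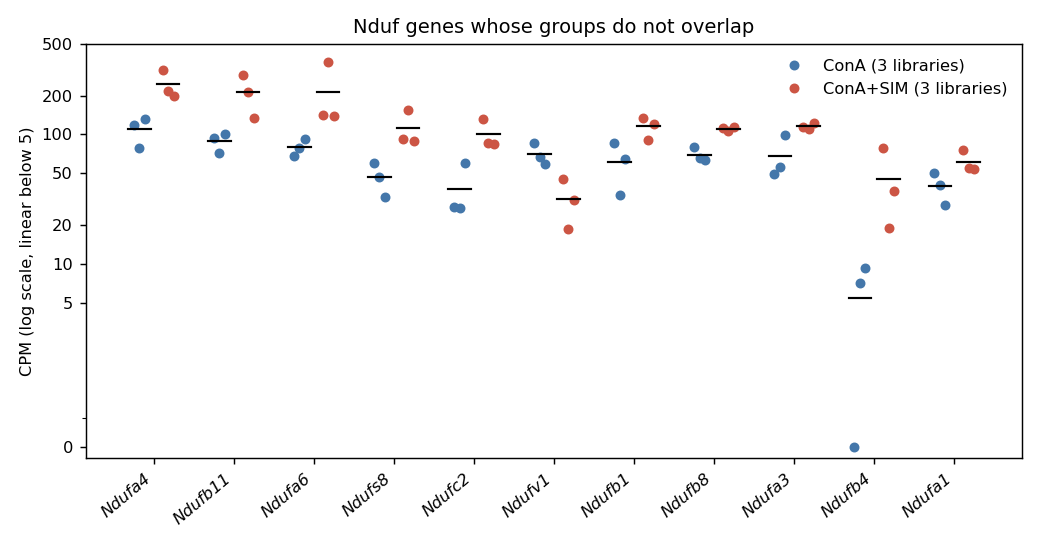
Levels in CPM (vertical axis, log scale above 5 and linear below) of the 11 Nduf genes whose groups did not overlap, ordered by unadjusted p. Points are libraries, blue for ConA and red for ConA+SIM, and bars are means of 3; Ndufv1 is the only one of the 11 with lower values in ConA+SIM, and 1 ConA library is at 0 for Ndufb4.

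Among the 6 core subunits tested, the fold change was above 0 in 4 and below 0 in 2, and none passed (edgeR; 1 higher and 1 lower at an unadjusted p under 0.05). Ndufv1, which binds NADH and the flavin that first accepts its electrons (chromosome 19, 4007499 to 4012755, GRCm38), stood at 85.4, 66.7 and 59.0 CPM in ConA and 45.4, 18.6 and 31.1 CPM in ConA+SIM. All 3 treated values lay below the controls, with a log2 fold change of -1.15 ± 0.50 (SE) that did not pass (edgeR, unadjusted p = 0.0468, adjusted p = 0.552). It was lower in all 18 alternative fits, from -1.50 to -0.88, and stood at -1.37 after length correction. Ndufs8, an iron-sulfur subunit of the ubiquinone-binding part (chromosome 19, 3908863 to 3912774), stood at 60.7, 47.3 and 32.6 CPM in ConA and 92.8, 155 and 88.3 CPM in ConA+SIM. Its groups were separated in the opposite direction, with a log2 fold change of 1.26 ± 0.41 (unadjusted p = 0.0134, adjusted p = 0.377) and 0.81 after length correction. These 2 genes lie 94724 bases apart on the same chromosome and strand. A difference between them was not tested.

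Ndufv2, Ndufs1 and Ndufs7 overlapped between the groups. Ndufv2, the iron-sulfur partner of Ndufv1, stood at 148, 96.7 and 129 CPM in ConA and 245, 97.6 and 203 CPM in ConA+SIM, with ConA+SIM replicate 2 at the level of the lowest control (log2 fold change 0.55 ± 0.37). Ndufs1, the largest subunit and carrier of several iron-sulfur clusters, had 57.6 to 129 CPM and 83.8 to 153 CPM (0.31 ± 0.40). Ndufs7, which lies at the ubiquinone-binding site, had 26.0 ± 9.69 CPM and 20.4 ± 11.0 CPM (-0.35 ± 0.94). Summed over the 7 core genes, the level was 410 to 538 CPM in ConA and 526 to 700 CPM in ConA+SIM, and the groups overlapped.

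Accessory subunits of the peripheral arm were higher in 7 of the 8 tested, with a median log2 fold change of 0.57 that was 0.11 after length correction, and 0 passed. Ndufa6, a subunit of the LYR family that docks the mitochondrial acyl carrier protein (chromosome 15, 82350139 to 82354291), stood at 67.8, 79.0 and 91.5 CPM in ConA and 142, 365 and 138 CPM in ConA+SIM. The difference was largest in ConA+SIM replicate 2, which was over 2 times its group fellows, and the groups were separated (1.43 ± 0.42, unadjusted p = 0.00701, adjusted p = 0.302). Without ConA+SIM replicate 2 its log2 fold change was 0.82, and after length correction 0.71. Ndufa5, a small accessory subunit, had 9.42 to 51.0 CPM in ConA and 23.7 to 91.9 CPM in ConA+SIM (1.19 ± 0.80, adjusted p = 0.856), and 2.28 without ConA replicate 1. Ndufa9, which binds NADPH at the junction of the arms, showed the opposite kind of spread. Its ConA libraries were nearly alike at 115, 116 and 108 CPM, whereas the ConA+SIM libraries had 60.5, 70.5 and 179 CPM (-0.13 ± 0.44). Ndufs4 and Ndufs6, whose loss destabilises the NADH-oxidising part, had log2 fold changes of 0.46 ± 0.43 and 0.11 ± 0.61.

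The membrane-arm subunits with B names were higher in 12 of 13, with a median log2 fold change of 0.68, and 0 passed. That median became 0.00049 after length correction and 0.15 with the median coding transcript length. Ndufb11, an X-linked subunit (chromosome X, 20615326 to 20617619), stood at 93.1, 71.4 and 101 CPM in ConA and 290, 214 and 134 CPM in ConA+SIM. All treated values were above the controls (1.26 ± 0.34, unadjusted p = 0.00468, adjusted p = 0.258), and the value was 0.74 after length correction. Ndufb8, whose protein is widely used as an antibody marker of assembled complex I, had the tightest treated values of the separated genes, with 79.5, 65.5 and 63.1 CPM in ConA and 112, 106 and 114 CPM in ConA+SIM (0.68 ± 0.32, adjusted p = 0.609). Its log2 fold change was 0.00049 after length correction, which used a longest principal transcript of 680 nt. With the median coding transcript length of 1411 nt it was 0.45, so the corrected value depends on the length chosen. Ndufb1, among the smallest subunits, had 86.2, 34.2 and 64.6 CPM and 135, 91.1 and 121 CPM (0.91 ± 0.42, adjusted p = 0.588).

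Ndufb4 showed the largest fold change of the 46, from 0, 7.10 and 9.32 CPM in ConA to 79.2, 19.1 and 36.5 CPM in ConA+SIM. The fitted log2 fold change was 3.04 ± 1.65 and did not pass (adjusted p = 0.716). It was 2.43 without ConA replicate 1, 3.69 without ConA replicate 3 and 2.34 without ConA+SIM replicate 1. ConA replicate 1 had 0 counts although the other libraries had 141 to 1484 counts. Ndufb4b and Ndufb4c are further genes of the same name, at 0.201 to 4.02 CPM and 0 to 1.14 CPM in ConA and 3.05 to 10.6 CPM and 0.350 to 2.08 CPM in ConA+SIM. The labels do not say how reads shared by such copies were counted, so the levels of these 3 genes are uncertain. Ndufb6 was the B subunit with a lower value (-0.14 ± 0.93).

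Of the 10 membrane-arm genes with other names, 5 were higher and 5 lower, with a median of 0.22 that became -0.23 after length correction. Ndufc2 (chromosome 7, 97400003 to 97407800) stood at 27.3, 27.0 and 60.2 CPM in ConA and 133, 86.6 and 85.1 CPM in ConA+SIM. The groups were separated (1.41 ± 0.47, unadjusted p = 0.0141, adjusted p = 0.383), and the value was 0.73 after length correction. Ndufa3 had 49.1, 55.7 and 99.5 CPM and 115, 111 and 123 CPM (0.77 ± 0.37, adjusted p = 0.638), and its sign turned to -0.055 after length correction. The X-linked Ndufa1, which is needed for assembly of the membrane arm, had 50.1, 40.9 and 28.6 CPM and 76.4, 55.0 and 53.8 CPM, and its log2 fold change of 0.63 ± 0.46 turned to -0.33. Ndufab1 is the mitochondrial acyl carrier protein, which also serves fatty acid and lipoic acid synthesis outside complex I. It had 28.0, 35.0 and 37.9 CPM in ConA and 45.9, 24.2 and 15.9 CPM in ConA+SIM, so the treated libraries lay on both sides of the controls (-0.23 ± 0.70, and 0.058 without ConA+SIM replicate 3). Ndufa11 had 0 counts in ConA+SIM replicate 2, whereas the other 5 libraries had 37.1 to 62.4 CPM. Ndufa8 and Ndufa10 also had lower values, at -0.64 ± 0.65 and -0.36 ± 0.56.

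Ndufa4, the complex IV subunit with the Nduf name (chromosome 6, 11900372 to 11907450), had the smallest unadjusted p of the 46. It stood at 118, 78.6 and 132 CPM in ConA and 314, 218 and 199 CPM in ConA+SIM. Every treated library lay above every control, with a log2 fold change of 1.16 ± 0.31 (unadjusted p = 0.00446, adjusted p = 0.253). DESeq2 called it higher (adjusted p = 0.0041). The value was 0.42 after length correction and 0.13 with GC content removed as well. Ndufa4l2, its paralog known as a hypoxia-induced gene, is listed at 0 in all 6 libraries.

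**Figure D3:**
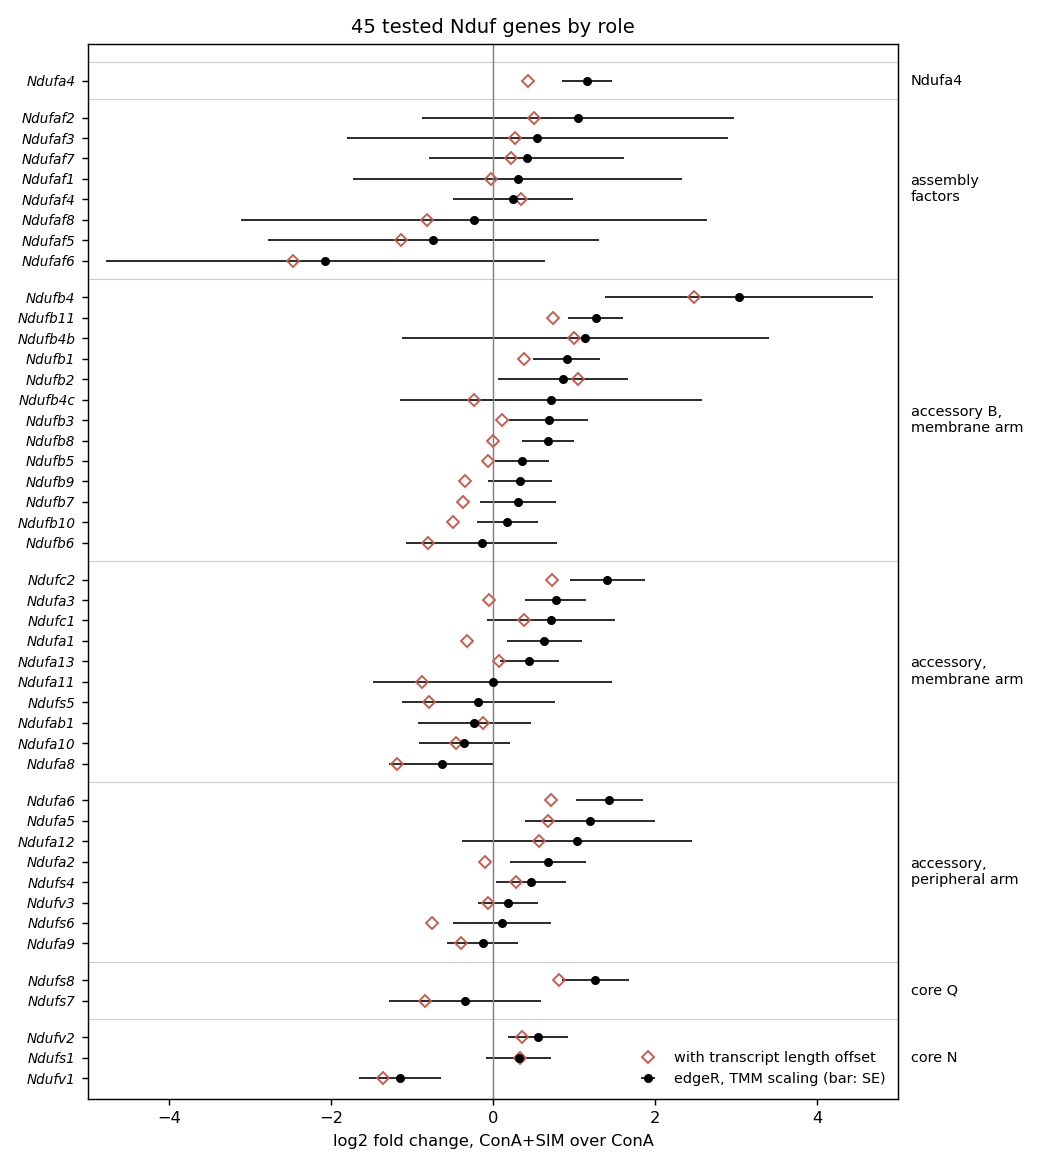
Log2 fold change of ConA+SIM over ConA (horizontal axis) for 45 of the tested Nduf genes, grouped by role and ordered within a role. Black points with bars are edgeR estimates with their SE, and open red diamonds are the values after each library's trend with transcript length was removed; 33 black points and 22 diamonds lie above 0.

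The assembly factors had the lowest median level per length of the 3 roles. Of the 8, 6 had 0 counts in at least 1 library. Over all 46 tested genes 9 had such a library (19.6%), against 29.9% of all tested genes. The SE of the log2 fold change had a median of 2.03 in those 9 and of 0.47 in the other 37 Nduf genes. Assembly factors had higher values in 5 of 8, a median of 0.27, and 0 passed. Ndufaf2, which occupies the place of its paralog Ndufa12 until late in assembly, stood at 23.2, 0 and 8.50 CPM in ConA and at 18.3, 25.5 and 21.5 CPM in ConA+SIM. Ndufaf5, which hydroxylates an arginine of Ndufs7, had 6.00, 32.4 and 17.2 CPM and 8.76, 24.6 and 0 CPM (-0.74 ± 2.04). Its log2 fold change was -0.073 without ConA replicate 2, -2.08 without ConA+SIM replicate 2 and -0.15 without ConA+SIM replicate 3. Ndufaf6 had 6.05, 0 and 11.5 CPM and 3.36, 0.700 and 0.107 CPM, the lowest fold change of the 46 (-2.07 ± 2.71, adjusted p = 0.999). It was -2.68 without ConA replicate 2, -1.11 without ConA replicate 3 and -3.84 without ConA+SIM replicate 1. Ndufaf4, an early factor that works with Ndufaf3, and Ndufaf7, a protein arginine methyltransferase, were the 2 factors with counts in every library, at 26.6 ± 6.42 and 15.1 ± 4.85 CPM in ConA and 31.4 ± 17.0 and 20.1 ± 5.03 CPM in ConA+SIM. The summed level of the 8 was 105 to 110 CPM in ConA and 89.8 to 169 CPM in ConA+SIM, and the groups overlapped.

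Levels of different genes were compared per transcript length, as RPKM (CPM per 1000 nt of the median coding transcript) averaged over the 6 libraries. The 6 tested core subunits ran from 26.7 RPKM (Ndufs7) to 117 RPKM (Ndufv2), with a median of 60.3. The accessory subunits with a length ran from 2.07 RPKM (Ndufb4c) to 385 RPKM (Ndufa6), with a median of 78.5. The assembly factors ran from 3.35 RPKM (Ndufaf6) to 26.2 RPKM (Ndufaf2), with a median of 9.26, and Ndufaf2 and Ndufs7 did not differ beyond their spread over the libraries (SD 16.0 and 11.2 RPKM). The untested core row Ndufs3 was at 0.017 RPKM, and its numbered partner Ndufs3_1 at 14.4 RPKM. Ndufa6 at 385 ± 290 RPKM and Ndufa4 at 384 ± 185 RPKM (SD over 6 libraries) headed the order and did not differ beyond their spread. The next genes, Ndufa3 at 213 ± 73.3 and Ndufb5 at 204 ± 56.0 RPKM (SD over 6 libraries), also lay within each other's spread. Each spread over 6 libraries includes any difference between the groups. The order depends on the length used. The median coding transcript had 382, 460, 433 and 625 nt for Ndufa6, Ndufa4, Ndufa3 and Ndufb5, and the longest principal one 590, 610, 515 and 1079 nt. Among the 37 genes with counts in every library, the highest library of a group exceeded the lowest by a median of 1.88 times within ConA and 2.02 times within ConA+SIM, and 28 of the 37 differed by over 2-fold within at least 1 group.

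**Figure D4:**
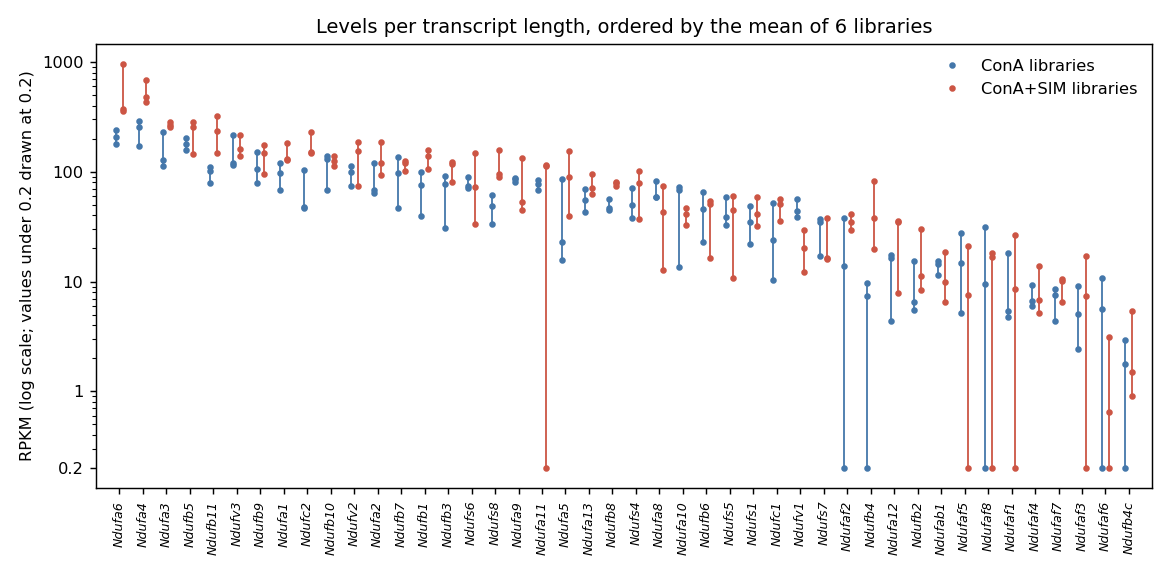
Level per transcript length in RPKM (vertical log axis, values under 0.2 drawn at 0.2) of 44 tested Nduf genes with a length, ordered by their 6-library mean. Points are libraries and lines span the 3 libraries of a group, blue for ConA and red for ConA+SIM; assembly factors gather at the right, where single libraries fall to 0.

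The other genes of complex I assembly and the other respiratory complexes were read from lists by complex. Of 9 measured complex I assembly factors without an Nduf name, 4 were higher, 5 lower and 0 passed, with a median of -0.063. Tmem126b, a membrane-arm assembly factor that works with Ndufaf1, had the smallest p, with 7.60, 7.45 and 0 CPM in ConA and 30.3, 22.3 and 19.0 CPM in ConA+SIM (2.25 ± 2.05, adjusted p = 0.991). Of 4 complex II genes 0 passed, and the flavoprotein gene Sdha had lower values, 250 ± 23.9 and 147 ± 27.5 CPM (-0.77 ± 0.25, adjusted p = 0.383). Complex III genes were higher in 7 of 9 with a median of 0.81, and Uqcrh stood at 301 ± 60.6 and 695 ± 107 CPM (1.21 ± 0.22, adjusted p = 0.0623). Complex IV genes were higher in 10 of 10 with a median of 0.54, and 1, Cox6c, rose (113 ± 12.8 to 335 ± 65.9 CPM, adjusted p = 0.0382), a call that held in 7 of 18 alternative fits and ended after length correction, where 0 genes passed. Complex V genes were higher in 13 of 15 with a median of 0.53, and 0 passed. DESeq2 (adjusted p under 0.05) called Sdha of complex II lower and Uqcrh and Uqcrq of complex III higher. It also called Cox6c, Cox7b and Cox7c of complex IV and Atp5j, Atp5j2 and Atp5l of complex V higher. Over all genes it tested, 3.31% were called higher and 1.84% lower. After length correction the medians were -0.21 for complex II, 0.36 for III, -0.13 for IV and 0.025 for V, beside -0.012 for the Nduf genes, and differences between these lists were not tested.

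Markers of other cells were read beside these values, since fewer cells of a type and less RNA per cell cannot be told apart in bulk samples. Hepatocytes are rich in mitochondria. Of their 16 listed markers, 8 were tested, 6 with higher values in ConA+SIM, the summed level was 217 to 353 CPM in ConA and 246 to 371 CPM in ConA+SIM, and Cps1 was at 0 in every library. Ass1 made up much of that sum, with 196 ± 85.3 CPM in ConA and 121 ± 27.4 CPM in ConA+SIM. Without it, a choice made after its values were seen, the other 15 summed to 30.3, 117 and 88.9 CPM in ConA and 120, 245 and 225 CPM in ConA+SIM. The groups of that sum did not overlap, but those of each of the 15 genes alone did. Single values weighed heavily in it, such as Hpx at 129 CPM in ConA+SIM replicate 2. Erythroid genes summed to 43.8 to 115 CPM in ConA and 229 to 343 CPM in ConA+SIM, with 5 of 5 tested genes higher, 1 of which passed. Genes of cells that the sort should remove (Cd8a, Cd8b1, Klrb1c, which encodes NK1.1, and Ncr1) summed to 24.7 to 50.7 CPM and 69.8 to 97.5 CPM, with 2 of 3 tested genes higher and Ncr1 at 0 in every library. Granulocyte genes summed to 287 to 480 CPM and 592 to 871 CPM, with 2 of 5 tested genes higher. Kupffer cell and monocyte genes had lower values in 9 of 12 tested, with a median log2 fold change of -0.97 and sums of 1553 to 3224 CPM and 1040 to 2568 CPM. Genes of liver sinusoidal endothelial cells had lower values in 12 of 12, with a median of -0.77 and sums of 414 to 2294 CPM and 430 to 801 CPM. B and plasma cell genes had higher values in 5 of 7, with a median of 0.062 and sums of 114 to 1285 CPM and 535 to 972 CPM. The sums of these last 3 lists overlapped between the groups. The part of other cells in the Nduf values was not tested.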

How the data were processed

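The deposited table holds the authors' raw read counts, without normalization, in 6 columns named like the samples; 0 columns were unused. The submitters' processing notes name HISAT2 (2.1.0) and GRCm38. Counting tool, annotation, strand setting and the treatment of multi-mapping reads: not given in the sources used here. From 23505 rows, filterByExpr of edgeR 4.0.16 (R 4.3.3) kept 10509, which were scaled with TMM factors and tested with the robust quasi-likelihood F test, with group as the one term. Benjamini-Hochberg adjustment ran over all tested genes (threshold 0.05). SE is the log2 fold change divided by the root of F. CPM are counts relative to the TMM-scaled total. Transcript lengths are from GENCODE M21 (GRCm38), gene coordinates and promoters from RefSeq GRCm38.p6. The length correction removed a lowess trend (span 0.5) per library through edgeR offsets; 99.5% of tested genes had a length. Alternatives were RLE scaling, other filters, DESeq2 1.42.0, limma-voom (3.58.1), a replicate block, summed copy rows, ribosomal protein rows left out and leaving out each library. Genes given in full are the 12 with the smallest p, the 3 with the lowest fold change, the 3 with the highest CPM, the core subunits, Ndufab1, Ndufa4 and Ndufa4l2; 1 gene under this rule is not reported here; further separated genes were named after their values were seen. Members and lists were chosen with earlier results of these data known, and Ndufb1 was added to its role list after the table was read.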

Additional observations from a re-analysis of the deposited data

How the results depend on the processing

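The count of Nduf genes called stayed at 0 in 17 of 18 alternative fits and was 4 with DESeq2. The count over all genes, 57 in the main test, was 537 with DESeq2, 128 with limma-voom and 137 with quality weights. It was 0 with the length offset, 0 with length and GC, 0 with the median transcript length offset, 0 without ribosomal protein rows and 0 with the replicate block, and ran from 0 to 3 when each library was left out. The median log2 fold change of the Nduf genes, 0.43, was -0.012 with the length offset, -0.016 with length and GC and 0.055 with the median length, and ran from 0.34 to 0.58 when each library was left out. Of the named genes, Ndufa3 was at -0.055 with the length offset and at -0.11 with the median length, and Ndufv2 at -0.12 with length and GC. When each library was left out, Ndufa6 ran from 0.82 to 1.67, Ndufa5 from 0.65 to 2.28, Ndufb4 from 2.34 to 3.69, Ndufaf5 from -2.08 to -0.073, Ndufaf6 from -3.84 to -1.11 and Ndufab1 from -0.75 to 0.058. In every fit that tested them, 23 of 46 Nduf genes kept their sign, 17 higher and 6 lower; 21 of these were tested in all 19 fits and 2 in all but 1.

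No pairing by replicate number was seen: same-numbered deviations correlated at 0.011, 0.0088 and 0.033 across genes, and not every sample correlated best with its own number. In libraries with so wide a spread, such correlations cannot show that the samples were unpaired. With the replicate block 0 Nduf genes passed, 32 of 46 were higher and the median was 0.41. The SE of the log2 fold change had a median of 2.03 in the 9 Nduf genes with a library at 0 and of 0.47 in the other 37.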

Other observations

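Regulators of mitochondrial gene expression were read from a list of 12 genes. Fitted values were higher in 10 of the 11 tested, against 48% of all tested genes. The median log2 fold change was 0.15, with 0 passing (edgeR quasi-likelihood test). Of the 11, 5 had 0 counts in at least 1 library, against 29.9% of all tested genes. The regulators had long transcripts, with a median of 3755 nt, and their median log2 fold change was 0.38 after length correction. The YY1 gene Yy1 stood at 159 ± 24.7 CPM in ConA and 231 ± 69.2 CPM in ConA+SIM (SD, n = 3 libraries per group; log2 fold change 0.53 ± 0.29, adjusted p = 0.709). Nrf1, the factor whose core letters were found in 10 Nduf promoters, stood at 65.2 ± 7.57 and 71.6 ± 67.1 CPM, with an SE of 1.43. Its ConA+SIM libraries had 81.8, 0 and 133 CPM, against 58.0 to 73.1 CPM in ConA. Tfam, which packages mitochondrial DNA, had 58.8 ± 19.5 and 63.9 ± 32.0 CPM, and Gabpa, the ETS-family subunit of GABP, had 105 ± 28.3 and 112 ± 16.1 CPM. The coactivator Ppargc1a was at 0 in every ConA library and at 0.356 ± 0.617 CPM in ConA+SIM, too low to be tested.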
